A study of Homo sapiens with 18 samples.

Results

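The amino acid transporters described here are the protein-coding genes of the families SLC1A, SLC3A, SLC6A, SLC7A, SLC36A, SLC38A and SLC43A, taken by gene symbol and matched by Ensembl identifier. They number 59 among the 58302 genes of the expression table, of which 19817 are protein-coding. SLC6A holds 19 of them, SLC7A 13, SLC38A 11, SLC1A 7, SLC36A 4, SLC43A 3 and SLC3A 2. They were measured in PANC-1 cells, a human line from a pancreatic ductal carcinoma, in which lentivirus carried either a control vector (shCtrl) or an shRNA against NAT10 (shNAT10). The labels call the control vector empty, whereas the study's oligonucleotide list gives a non-targeting shRNA, so the exact control is uncertain. NAT10 is the enzyme that writes N4-acetylcytidine (ac4C) on RNA. RNA-seq covered 3 libraries per group, and acRIP-seq, in which fragmented RNA is pulled down with an antibody against ac4C (IP) and compared with the unselected fragments (input), covered 3 IP and 3 input libraries per group. Both groups come from 1 line and the labels name 1 knockdown vector, so an effect of this particular hairpin cannot be told apart from loss of NAT10. The labels do not say that the replicates are separate cultures, so the p-values measure the spread between these libraries, which may be technical.

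Cells take up amino acids through carriers that work together. SLC7 light chains such as SLC7A5 and SLC7A11 reach the plasma membrane bound to the SLC3A2 heavy chain and exchange one amino acid for another. SLC38 carriers and SLC1A5 load the cell with glutamine and small neutral amino acids by way of the sodium gradient. SLC36A1, SLC38A7 and SLC38A9 sit in the lysosome membrane, where SLC38A9 reports arginine to mTORC1, the kinase complex that couples amino acid supply to growth. Pancreatic tumor cells are known for a high demand for glutamine and for cystine.

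For 3 transporters the same stretch of coding sequence was under an acRIP peak in both groups, lies wholly inside the CDS and could be read from the longest coding transcript. These stretches are shown because they are parts of transporter coding mRNA listed as ac4C-enriched with and without the knockdown. SLC7A7 had hardly any mRNA in the RNA-seq, and its peaks are given below with those of weakly expressed genes. Capitals mark a C followed by any pair of bases, repeated 4 times in a row (CNNCNNCNNCNN), the kind of repeat linked to ac4C. Each is written 5′ to 3′ on the mRNA strand, joined across exons, from the GENCODE transcripts on GRCh38. The SLC1A4 stretch, on the plus strand at chr2:65016578-65018154, spans 2 exons and 180 bases, of which 24 lie in 2 such repeats. The SLC38A1 stretch, on the minus strand at chr12:46204383-46206106, spans 3 exons and 121 bases. The SLC7A7 stretch, on the minus strand at chr14:22813014-22813134, is 121 bases from a single exon. The SLC38A1 and SLC7A7 stretches hold no such repeat.
SLC1A4: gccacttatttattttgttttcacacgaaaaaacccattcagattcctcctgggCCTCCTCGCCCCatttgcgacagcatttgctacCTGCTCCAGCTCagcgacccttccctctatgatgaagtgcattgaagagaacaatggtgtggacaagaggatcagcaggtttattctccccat
SLC38A1: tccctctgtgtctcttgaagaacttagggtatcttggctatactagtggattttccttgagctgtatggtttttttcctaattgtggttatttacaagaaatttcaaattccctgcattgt
SLC7A7: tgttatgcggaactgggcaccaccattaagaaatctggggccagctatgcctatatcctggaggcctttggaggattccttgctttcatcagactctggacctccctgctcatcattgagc

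The expression values are FPKM, reads scaled by transcript length and by the reads of the library. The length that fits them is that of the longest transcript of each gene, whichever transcript is expressed. Levels of different genes can thus be compared only roughly. The reads behind the values, recovered from the steps between them, numbered 15831720 to 23521762 per library. NAT10 itself stood at 31.6, 27.7 and 28.6 FPKM in the 3 shCtrl libraries and at 7.92, 8.43 and 7.90 FPKM in the 3 shNAT10 libraries. Its log2 fold change was −1.84 (SE 0.08, adjusted p = 3.85e-05, limma), and the exact two-sided permutation test of this value gave p = 0.1, the smallest that 3 against 3 libraries allow. The summed FPKM of 4 ductal keratins (KRT7, KRT8, KRT18 and KRT19), markers of the labelled cell type, was 2783 to 3744 in shCtrl and 1470 to 1650 in shNAT10 libraries, and 4 of the 4 were called lower. Markers of leukocytes, endothelial, acinar and islet cells and skeletal muscle summed to at most 0.320 FPKM per list in any library. Of the neuron markers, SYT1 and SNAP25 were expressed and both rose, to a list sum of 17.5 to 18.7 FPKM from 11.2 to 13.6, while the defining marker RBFOX3 stayed at or below 0.0335 FPKM. Of the fibroblast markers, COL1A1 fell, and COL3A1, which reached the filter only through the shNAT10 libraries, was at 0.776 ± 0.104 FPKM (SD, n = 3) in shCtrl and 1.96 ± 0.105 FPKM in shNAT10, with a list sum of 29.5 to 34.6 FPKM in shCtrl and 19.2 to 22.8 in shNAT10, while DCN and LUM stayed at or below 0.0192 FPKM. The part of these shifts in the transporter results was not tested.

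Of the 22 transporters that could be tested, 5 were called higher and 5 lower after NAT10 knockdown. One of the higher, SLC6A16, reached the expression filter only through the shNAT10 libraries, so that without it 4 of 21 were higher. SLC7A1, SLC6A8, SLC7A6 and SLC1A5 rose, and SLC43A2, SLC36A1, SLC38A2, SLC6A9 and SLC6A17 fell. The largest changes were a fall of SLC43A2 to 0.208 times its control level and a rise of SLC7A1 to 2.41 times. The other 12, among them SLC7A5, SLC3A2 and SLC7A11, did not pass the test. Genes that reached 1 FPKM in 3 or more of the 6 libraries were tested, with limma on log2 of FPKM plus 0.1, and were called at a Benjamini-Hochberg adjusted p under 0.05 over all 12982 tested genes. Among all tested genes, 20.8% were called higher and 21.2% lower, so the members' counts lie close to the background. Over genes that reached the filter through libraries of both groups, a restriction chosen after seeing the data, 20.5% were higher and 20.5% lower, against 4 and 5 of 21 members. Beyond a log2 fold change of 1 stood 1 higher member, SLC7A1, and 2 lower members, SLC43A2 and SLC36A1, where 2.91% and 3.57% of all tested genes did. The 3 libraries of one group lay clear of the 3 of the other, upward in 8 members and downward in 9, against 27.9% and 28.6% of all tested genes. The median log2 fold change of the 22 was −0.13, against −0.011 over all tested genes. With values rescaled to TPM, the median of all genes moved up by 0.11 and the calls over all genes shifted from 2699 higher and 2751 lower to 3355 and 2075. No tested member changed direction in TPM, but the members called became 6 higher and 4 lower, with SLC38A10 gained and SLC6A17 lost.

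**Figure D1:**
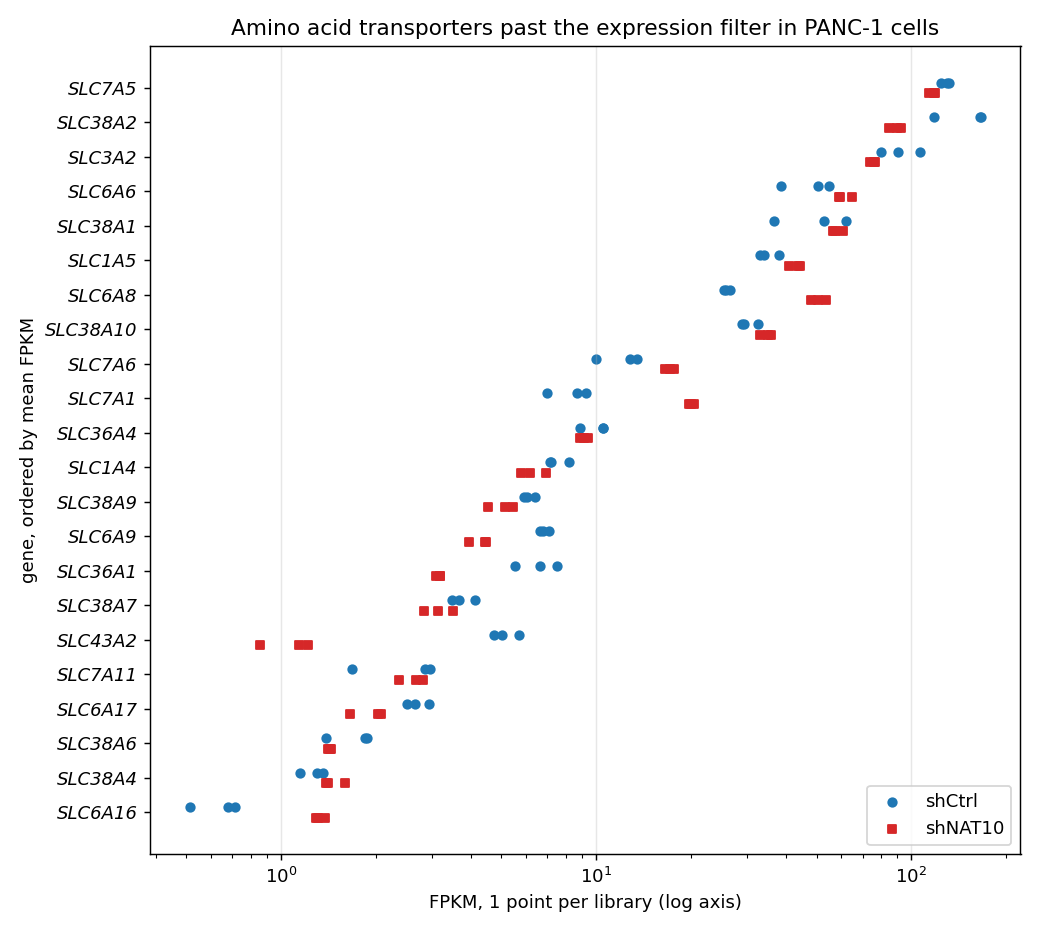
FPKM of the 22 tested transporters on a log axis, with 1 point per library (blue circles, 3 shCtrl libraries; red squares, 3 shNAT10 libraries) and genes ordered by mean FPKM. SLC43A2 lies between 0.854 and 1.22 FPKM in shNAT10 and between 4.74 and 5.70 FPKM in shCtrl libraries, while SLC7A1 shows the opposite order.

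Among the SLC7 light chains that need the SLC3A2 heavy chain, SLC7A5, the LAT1 carrier of leucine and other large neutral amino acids, had the highest mean FPKM of the 59 transporters over the 6 libraries. It measured 124, 132 and 129 FPKM in shCtrl and 119, 118 and 113 FPKM in shNAT10 libraries. The groups did not overlap, yet the log2 fold change was −0.14 with a 95% interval of −0.28 to 0.00 and an adjusted p of 0.101 (limma). SLC7A5 reads could also be shared with its pseudogene SLC7A5P1, which was listed at 0.353 to 2.06 FPKM.

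SLC3A2, the heavy chain itself, measured 79.98, 106 and 90.7 FPKM in shCtrl and 76.1, 76.7 and 73.9 FPKM in shNAT10 libraries. All 3 shNAT10 libraries were below the lowest shCtrl library, and the log2 fold change of −0.28 (SE 0.10) missed the threshold (adjusted p = 0.0693, limma). Replicates 1 and 2 of shCtrl were the lowest and the highest of the group, and the log2 fold change was −0.38 without replicate 1 (adjusted p = 0.0130) and −0.17 without replicate 2 (adjusted p = 0.0461). The adjusted p of SLC3A2 reached 0.181 with another library left out. Relative to the summed FPKM of its light chains SLC7A5, SLC7A6, SLC7A7, SLC7A8, SLC7A10 and SLC7A11, the heavy chain stood at 0.567, 0.735 and 0.620 in shCtrl and at 0.544, 0.556 and 0.552 in shNAT10 libraries. This ratio was thus lower in each shNAT10 library than in any shCtrl library. The separation rests on SLC7A6, which rose and whose level is uncertain. With SLC7A6 left out of the sum, the groups overlap.

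SLC7A6, the light chain that exports arginine and lysine in exchange for neutral amino acids, measured 13.4, 9.99 and 12.8 FPKM in shCtrl and 17.6, 16.5 and 17.1 FPKM in shNAT10 libraries. Every shNAT10 library was above the highest shCtrl library, and the rise was 0.51 on the log2 scale (SE 0.12, adjusted p = 0.0130, limma). Without shNAT10 replicate 1 its adjusted p was 0.0528. Of its exon bases, 55.6% are shared with genes on the other strand, AC020978.9 and SLC7A6OS (the latter at 4.06 to 4.64 FPKM in shCtrl and 5.13 to 5.71 in shNAT10). The sources used here do not say whether counting used strand, so the level of SLC7A6 is uncertain.

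SLC7A11, the cystine and glutamate exchanger that feeds glutathione synthesis, was low in these cells, at 2.98, 1.68 and 2.86 FPKM in shCtrl and 2.36, 2.82 and 2.68 FPKM in shNAT10 libraries. The groups overlapped, and the log2 fold change was 0.10 with a 95% interval of −0.42 to 0.62 (adjusted p = 0.745, limma). Without shCtrl replicate 2, its lowest library, the estimate was −0.15 (adjusted p = 0.320), and without shCtrl replicate 1 it was 0.24. The antisense gene SLC7A11-AS1, which shares 8.97% of its exon bases, was at or below 0.0271 FPKM.

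SLC7A1, the CAT-1 carrier of arginine, lysine and ornithine that works without a heavy chain, had the largest rise. Its level was 9.26, 6.97 and 8.70 FPKM in shCtrl and 19.95, 19.7 and 20.4 FPKM in shNAT10 libraries. The lowest shNAT10 library was above the highest shCtrl library by a wide margin, and the log2 fold change was 1.27 (SE 0.11, adjusted p = 0.000283, limma). It ranged from 1.15 to 1.35 when each library was left out in turn, and was called each time. The related SLC7A2, the CAT-2 carrier, stayed below the filter at 0.128, 0.0388 and 0.106 FPKM in shCtrl and 0.488, 0.458 and 0.355 FPKM in shNAT10 libraries, from 6 to 19 and 48 to 68 reads. All its shNAT10 libraries were higher, and in the fit without the filter its log2 fold change was 1.51 (SE 0.32, adjusted p = 0.0245, limma).

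In the SLC1 family, SLC1A5, the ASCT2 glutamine exchanger, measured 33.1, 38.1 and 34.0 FPKM in shCtrl and 43.8, 44.2 and 40.8 FPKM in shNAT10 libraries. Each shNAT10 library exceeded each shCtrl library, with a log2 fold change of 0.29 (SE 0.08, adjusted p = 0.0214, limma). This call was lost without shCtrl replicate 3 (adjusted p = 0.0799), without shNAT10 replicate 1 (0.0816) or without shNAT10 replicate 2 (0.0885). Some of its exon bases are shared with the other strand, so its level is uncertain if counting did not use strand. SLC1A4, the ASCT1 carrier of alanine, serine, cysteine and threonine, averaged 7.49 ± 0.587 FPKM (SD, n = 3) in shCtrl and 6.28 ± 0.590 FPKM in shNAT10 libraries, with a log2 fold change of −0.25 (adjusted p = 0.0796, limma).

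Among the sodium-coupled SLC38 carriers, SLC38A2, the SNAT2 carrier of glutamine, alanine and other small neutral amino acids, had the second-highest mean FPKM of the 59 over the 6 libraries and fell. It measured 166, 118 and 166 FPKM in shCtrl and 90.0, 84.9 and 92.6 FPKM in shNAT10 libraries. The groups did not overlap, although shCtrl replicate 2 lay well under the other two, and the log2 fold change was −0.73 (SE 0.14, adjusted p = 0.00585, limma). It lay between −0.90 and −0.65 with each library left out in turn and was called each time.

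SLC38A1, the SNAT1 carrier of the same substrates and a neighbour of SLC38A2 on chromosome 12, measured 62.1, 36.6 and 53.0 FPKM in shCtrl and 57.1, 56.2 and 60.5 FPKM in shNAT10 libraries. Its groups overlapped, with a log2 fold change of 0.23 and a 95% interval of −0.19 to 0.65 (adjusted p = 0.340, limma). The estimate was 0.01 without shCtrl replicate 2, its lowest library, and 0.39 without shCtrl replicate 1. SLC38A4, another SLC38 gene of this region, was at 1.27 ± 0.107 FPKM (SD, n = 3) in shCtrl and 1.46 ± 0.116 FPKM in shNAT10 libraries, with a log2 fold change of 0.19 (adjusted p = 0.365, limma). Neither neighbour of SLC38A2 was called lower, and the differences between the 3 genes were not tested.

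The lysosomal SLC38 members gave estimates of −0.27 for SLC38A9 (adjusted p = 0.0513, limma) and −0.24 for SLC38A7, which carries glutamine out of the lysosome (adjusted p = 0.147). SLC38A9 averaged 6.11 ± 0.267 FPKM (SD, n = 3) in shCtrl and 5.04 ± 0.458 FPKM in shNAT10 libraries, without overlap. It was called lower without shCtrl replicate 2 (adjusted p = 0.0335, limma), but its adjusted p reached 0.175 with another library left out. SLC38A10, at 30.3 ± 1.90 FPKM in shCtrl and 34.6 ± 1.47 FPKM in shNAT10 libraries, had a log2 fold change of 0.19 (adjusted p = 0.0715, limma). Its adjusted p was 0.00728 without shCtrl replicate 2 and up to 0.221 with another library left out. Leaving out shCtrl replicate 2 also raised the calls over all genes, from 2699 higher and 2751 lower to 3311 and 3182. SLC38A6, at 1.70 ± 0.274 and 1.42 ± 0.0193 FPKM, had one of −0.23 (adjusted p = 0.304).

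SLC36A1, a proton-coupled carrier of glycine, alanine and proline in the lysosome and plasma membrane, fell. It measured 7.53, 5.51 and 6.65 FPKM in shCtrl and 3.20, 3.19 and 3.10 FPKM in shNAT10 libraries. The highest shNAT10 library lay below the lowest shCtrl library, with a log2 fold change of −1.02 (SE 0.12, adjusted p = 0.000942, limma). Its relative SLC36A4 averaged 9.97 ± 0.938 FPKM (SD, n = 3) in shCtrl and 9.14 ± 0.270 FPKM in shNAT10 libraries, with overlapping groups and an estimate of −0.12 (adjusted p = 0.311, limma). The adjusted p of SLC36A4 was 0.0266 without shCtrl replicate 2 and up to 0.586 with another library left out.

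SLC43A2, the LAT4 carrier through which branched-chain amino acids, phenylalanine and methionine move down their gradient, had the largest fall. Its levels were 4.74, 5.70 and 5.03 FPKM in shCtrl and 0.854, 1.22 and 1.14 FPKM in shNAT10 libraries. The groups lay far apart, with a log2 fold change of −2.18 (SE 0.16, adjusted p = 0.000161, limma) that stayed between −2.27 and −2.03 with each library left out. Its relative SLC43A1 (LAT3) stayed below the filter, at 0.777, 0.856 and 0.982 FPKM in shCtrl and 0.365, 0.357 and 0.457 FPKM in shNAT10 libraries. Those groups did not overlap either, and in the fit without the filter the log2 fold change was −0.98 (SE 0.24, adjusted p = 0.0413, limma).

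**Figure D2:**
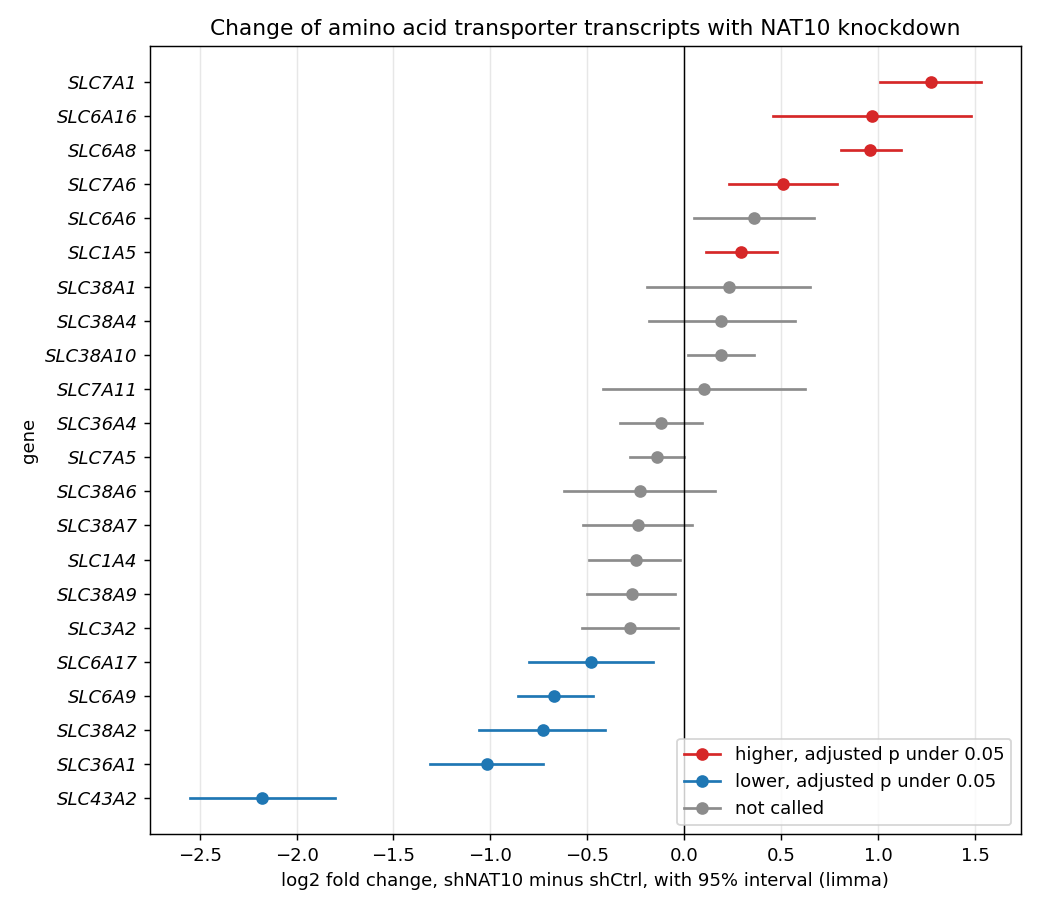
Log2 fold change of the 22 tested transporters, shNAT10 minus shCtrl, with 95% intervals from limma (red, called higher; blue, called lower; grey, not called; the vertical line marks 0). The estimates run from −2.18 for SLC43A2 to 1.27 for SLC7A1, and the intervals of 12 genes belong to estimates that were not called. The intervals are not adjusted for the number of genes tested, whereas the calls are. Some grey intervals therefore exclude 0, such as those of SLC6A6 (0.05 to 0.67) and SLC3A2 (−0.53 to −0.03).

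The SLC6 family holds sodium and chloride coupled carriers of amino acids, osmolytes and transmitters. SLC6A8, the creatine transporter, measured 25.9, 26.6 and 25.5 FPKM in shCtrl and 50.4, 53.5 and 48.2 FPKM in shNAT10 libraries. The libraries of each group lay close together and the groups far apart, and the log2 fold change of 0.96 (SE 0.07, adjusted p = 0.000131, limma) ranged from 0.92 to 1.00 with each library left out. SLC6A6, the taurine transporter, measured 54.7, 38.5 and 50.5 FPKM in shCtrl and 64.8, 59.5 and 58.7 FPKM in shNAT10 libraries. Although its groups did not overlap, the log2 fold change of 0.36 (SE 0.13) missed the threshold (adjusted p = 0.0624, limma). Without shCtrl replicate 1 the log2 fold change was 0.47 (adjusted p = 0.0222), and without shCtrl replicate 2 it was 0.21 (adjusted p = 0.0231). The adjusted p of SLC6A6 reached 0.178 with another library left out.

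SLC6A9, the GlyT1 glycine transporter, measured 6.80, 7.10 and 6.64 FPKM in shCtrl and 4.42, 4.47 and 3.96 FPKM in shNAT10 libraries. Its groups did not overlap, with a log2 fold change of −0.67 (SE 0.08, adjusted p = 0.00114, limma). SLC6A17, a vesicular carrier of neutral amino acids, fell by 0.48 on the log2 scale from 2.71 ± 0.223 FPKM (SD, n = 3) to 1.92 ± 0.231 FPKM (adjusted p = 0.0279, limma). That call was lost without shCtrl replicate 3 (adjusted p = 0.104) and without shNAT10 replicate 1 (0.0892), 2 (0.0603) or 3 (0.0552), and also without the expression filter (0.0681) and in TPM (0.0860).

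SLC6A16, whose substrate is not known, measured 0.676, 0.712 and 0.513 FPKM in shCtrl and 1.31, 1.38 and 1.29 FPKM in shNAT10 libraries. It passed the filter only through the shNAT10 libraries in which it is high, so a difference was built into its being tested, and its log2 fold change of 0.97 (adjusted p = 0.0113, limma) is given as a value. With any shNAT10 library left out it no longer reached the filter.

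Summed over all 59 members, transporter mRNA amounted to 657, 601 and 659 FPKM in shCtrl and 616, 610 and 602 FPKM in shNAT10 libraries, with overlapping groups. SLC7A5, SLC38A2, SLC3A2, SLC6A6 and SLC38A1, the 5 with the highest mean, made up 74.0%, 71.7% and 74.3% of that sum in shCtrl and 66%, 64.8% and 66.3% in shNAT10 libraries. Their share was smaller in every shNAT10 library. Of the 5, SLC38A2 was called lower, and SLC7A5, SLC3A2, SLC6A6 and SLC38A1 were not called in either direction.

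The remaining 37 members did not pass the filter. Of these, 11 were listed at 0 in all 6 libraries, among them the glutamate transporters SLC1A3 and SLC1A6, the broad neutral and cationic carrier SLC6A14, and members of the SLC7A and SLC36A families such as SLC7A4, SLC7A13, SLC7A14 and SLC36A3. A further 17 had a mean above 0 and under 0.1 FPKM, including the neuronal glutamate transporter SLC1A1, the serotonin transporter SLC6A4, the dopamine transporter SLC6A3, the noradrenaline transporter SLC6A2 and the LAT2 light chain SLC7A8. The others of this level were SLC1A2, SLC6A5, SLC6A13, SLC6A15, SLC6A19, SLC6A20, SLC7A3, SLC7A9, SLC36A2, SLC38A8, SLC38A11 and SLC43A3. The last 9 were weakly expressed, at a mean of 0.104 to 0.781 FPKM. In the fit without the filter, 7.55% of 29695 genes were called higher and 7.85% lower, and the calls among these 9 were SLC7A2, SLC43A1 and SLC1A7. Those shares cover genes of every level, and none was taken for genes as weak as these 9, so the counts cannot be compared. SLC1A7, a glutamate transporter of the retina, measured 0.512, 0.571 and 0.592 FPKM in shCtrl and 0.187, 0.0914 and 0.117 FPKM in shNAT10 libraries, from 30 to 47 and 6 to 10 reads. Its groups did not overlap, with a log2 fold change of −1.52 (SE 0.30, adjusted p = 0.0174, limma), which the pseudocount shrinks at this level. SLC38A5, at 0.153 ± 0.0512 FPKM (SD, n = 3) in shCtrl and 0.0550 ± 0.0279 FPKM in shNAT10 libraries, did not pass (adjusted p = 0.174, limma), nor did SLC7A7, SLC7A10, SLC38A3, SLC3A1 and SLC6A12.

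Other genes of amino acid supply were called in both directions, beside 20.8% higher and 21.2% lower over all tested genes. Of 34 tested genes of the amino acid response, the ATF4 pathway that cells start when amino acids are short, 7 were higher (20.6%) and 6 lower (17.6%), with a median log2 fold change of −0.04. That list also holds EIF2AK1, EIF2AK2 and EIF2AK3, kinases of this pathway that are not particular to amino acid shortage. EIF2AK2 was among those called lower. Of 36 tested genes of lysosomal amino acid sensing and mTORC1, 6 were higher (16.7%) and 8 lower (22.2%), with a median of −0.05. Of 16 tested amino acid carriers from other families, 4 were higher (25%) and 4 lower (25%), with a median of 0.06. Of 28 tested enzymes of amino acid use, 4 were higher (14.3%) and 6 lower (21.4%), with a median of −0.10, and 3 were higher without GLDC, which reached the filter only through the shNAT10 libraries. The lists were not compared with each other by a test.

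The largest falls across these lists were in LAMTOR3, a subunit of the Ragulator complex that anchors mTORC1 regulators to the lysosome, with a log2 fold change of −1.24 (SE 0.11, adjusted p = 0.000309, limma), in CHAC1, a glutathione-degrading enzyme of the ATF4 response (−1.17), and in RRAGC, a Rag GTPase that brings mTORC1 to the lysosome (−1.01). LAMTOR3 stood at 4.61 ± 0.241 FPKM (SD, n = 3) in shCtrl and 1.89 ± 0.189 FPKM in shNAT10 libraries. The largest rises were in ARG2, the mitochondrial arginase that splits arginine, at 1.31 (SE 0.16, adjusted p = 0.00106, limma), and in FNIP2, a folliculin partner (0.94). GLDC of the glycine cleavage system, the next by size, is given as values, 0.727 ± 0.0517 FPKM in shCtrl and 1.43 ± 0.206 FPKM in shNAT10 libraries, since a difference was built into its being tested. ARG2 stood at 1.29 ± 0.195 FPKM in shCtrl and 3.33 ± 0.401 FPKM in shNAT10 libraries. ASS1, which makes the precursor of arginine and was picked after its values were seen, fell by 0.94 on the log2 scale (SE 0.13, adjusted p = 0.00145).

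Promoters of the members were searched, in RefSeq sequences on GRCh38.p14 from 250 bases before to 50 after each listed start, on both strands, for TGATGNAA, the core of the element bound by C/EBP-ATF factors in the amino acid response, and for TGACNNNGC, the core of the antioxidant response element. The motifs do not overlap each other in the sites named here. The table held 44 of the 59 members and 20 of the 22 tested ones, without SLC6A6 and SLC7A11. TGATGNAA was held at one of their starts by 6 of the 44 members (13.6%), where 4.46% of all 27305 genes did, and 5 of the 6 were among the 20 tested (SLC1A4, SLC1A5, SLC38A1, SLC3A2 and SLC7A1). TGACNNNGC was held by 7 of the 44 (15.9%), where 16.1% of all genes did, and 5 of the 7 were among the 20 tested (SLC1A5, SLC3A2, SLC7A1, SLC7A5 and SLC7A6). Per promoter, TGATGNAA was present in 6 of 66 member promoters (9.09%, against 3.62% of all 35116) and TGACNNNGC in 7 of 66 (10.6%, against 13.3%). SLC7A1 and SLC3A2 held both motifs at the same start, and SLC1A5 held them at different listed starts. Of these, SLC7A1 and SLC1A5 rose while SLC3A2 was not called. A match is a run of letters, and binding was not measured. The SLC7A1 stretch is shown as it belongs to the member with the largest rise. It lies on the minus strand at chr13:29595735-29595803, ahead of the start, with the TGACNNNGC match, 85 bases before the start, in capitals. The TGATGNAA match of SLC7A1 lies 7 bases after the start, outside this stretch.
SLC7A1: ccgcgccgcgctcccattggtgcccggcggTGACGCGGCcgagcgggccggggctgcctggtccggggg

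The acRIP-seq peaks came as 1 list per group, without replicate spread, and were not tested. The shCtrl list held 45 peaks on 22 members and the shNAT10 list 40 peaks on 18, and 16 members had a peak in both. Among the 22 tested members, 14 had a shCtrl peak, 12 a shNAT10 peak and 10 both, against 55.5%, 53.7% and 38.5% of 11018 tested protein-coding genes. A shCtrl peak was listed on 3 of the 5 higher, 2 of the 5 lower and 9 of the 12 uncalled members. Among all tested protein-coding genes, these shares were 61.5% of the higher, 50.4% of the lower and 55.3% of the uncalled.

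Of the 45 shCtrl peaks of members, 13 (28.9%) shared at least 1 base with a shNAT10 peak on the same strand, and 25.6% of all shCtrl peaks did. By midpoint on the longest coding transcript, 22 of 41 shCtrl peaks fell in the CDS (53.7%, against 59.0% of all) and 17 in the 3′ UTR. In the shNAT10 list 11 of 32 fell in the CDS (34.4%, against 59.1% of all) and 19 in the 3′ UTR. Several of these peaks share a gene, so they are not independent. The CNN repeat of 4 units was present in 18 of 37 shCtrl peaks with a sequence (48.6%, against 51.5% of all) and in 14 of 25 shNAT10 peaks (56.0%, against 50.7%).

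Among the members that rose, SLC7A1 went from 4 peaks to 1. Its shCtrl peaks lay in the CDS at chr13:29523362-29524185 (fold enrichment 105) and at 3 sites of the 3′ UTR (fold enrichment 61.6, 27.4 and 9.50). The last of these, chr13:29514019-29514228, was the one that overlapped the single shNAT10 peak, chr13:29513989-29514168 (7.34). SLC6A8 kept a peak at the identical position chrX:153690430-153690609, off the exons of its longest coding transcript, with a fold enrichment of 91.0 in shCtrl and 11.0 in shNAT10 cells, and a CDS peak (4.28) was listed in shCtrl cells alone. SLC1A5 had CDS peaks at chr19:46775627-46777091 (75.3) and chr19:46777282-46778789 (14.6) in shCtrl cells and lacked any in the shNAT10 list, while SLC7A6 lacked any in the shCtrl list and had 2 in the 3′ UTR in shNAT10 cells (102 and 31.1). SLC6A16 had no peak in either list.

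Among the members that fell, SLC38A2 had a 3′ UTR peak in each list, chr12:46360788-46360937 in shCtrl (fold enrichment 1.53) and chr12:46360250-46360459 in shNAT10 cells (10.2), which did not overlap. SLC36A1 had 1 shCtrl peak in its 3′ UTR, chr5:151491333-151491872 (92.2), and 3 shNAT10 peaks elsewhere in the same 3′ UTR, of which chr5:151490434-151490704 was the highest (950.0). SLC43A2 had no shCtrl peak and a CDS peak in shNAT10 cells (278), and SLC6A9 and SLC6A17 had none in either list. The falling members thus held shCtrl peaks on SLC38A2 and SLC36A1 only. Neither peak overlapped a shNAT10 peak, where 25.6% of all shCtrl peaks did, and so few peaks show no difference from that share.

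Among the uncalled members, SLC1A4 had 5 peaks in shCtrl and 4 in shNAT10 cells. Its shared CDS stretch, printed above, lay under peaks with a fold enrichment of 12.2 in shCtrl and 2180 in shNAT10 cells, and its shared 3′ UTR peak, chr2:65021652-65021861 in shCtrl cells, under 155 and 1730. SLC38A1, with 3 and 4 peaks, had the opposite order, at 5.48 and 2.83 over its CDS stretch and at 23.4 and 3.41 over the shared 3′ UTR peak, chr12:46184022-46184352 in shCtrl cells. How the fold enrichment was scaled is not given in the sources used here, so it was not compared between the lists as an amount of ac4C.

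SLC38A10 shared a CDS peak, chr17:81276133-81279756 in shCtrl (122) and chr17:81276103-81279786 in shNAT10 cells (16.7), beside 2 more CDS peaks in shCtrl cells alone. SLC3A2 shared a peak, chr11:62881997-62882206 in shCtrl (20.4) and chr11:62881967-62882176 in shNAT10 cells (26.2), that lies off the exons of its longest coding transcript. Each list held a further SLC3A2 peak in the CDS, chr11:62888426-62888576 in shCtrl (1.99) and chr11:62885437-62886474 in shNAT10 cells (32.7). SLC6A6 had 4 shCtrl and 5 shNAT10 peaks and SLC36A4 had 1 and 3, none of which overlapped across the lists. The highest SLC6A6 peak was at chr3:14488781-14489110 in the 3′ UTR in shCtrl cells (124), and the SLC36A4 peak of shCtrl cells was at chr11:93148518-93148758 in the CDS (22.3). SLC7A11 (580.0), SLC38A6 (1870) and SLC38A7 (28.8) had 1 peak each in shCtrl cells alone, and SLC7A5, SLC38A4 and SLC38A9 had none in either list.

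Peaks were also listed on members with hardly any mRNA in the RNA-seq. Of the 37 members below the filter, 8 had a peak in at least one list, against 20.1% of 8799 protein-coding genes below the filter. SLC1A3, listed at 0 FPKM in all 6 RNA-seq libraries, had 2 shCtrl peaks with a fold enrichment of 724 and 2280 and 3 shNAT10 peaks of 348 to 435, and both shCtrl peaks overlapped shNAT10 peaks. SLC43A3, at a mean of 0.0281 FPKM, had 3 peaks in each list, up to 2060 and 2770. Of its exon bases, 29.9% are shared with AP000781.2 on the same strand, so its level and the gene behind its peaks are uncertain. SLC7A8 had 1 peak in each list (1030 and 2270). SLC7A7, at a mean of 0.234 FPKM in shCtrl and 0.305 FPKM in shNAT10 libraries, had its printed stretch under peaks of 36.3 in shCtrl and 5350 in shNAT10 cells. SLC7A2, SLC43A1, SLC1A7 and SLC6A12 had peaks as well.

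The fold enrichment of peaks was higher on weakly expressed genes, among members and all genes alike. Its median was 28.8 for 31 shCtrl peaks on members past the filter and 668 for 14 on members below it, and over all genes 37.5 and 270. In the shNAT10 list the medians were 21.1 for 28 peaks and 548 for 12, and over all genes 33.7 and 244. The ratio has the input in its denominator, and read numbers were not used here for single peaks, so the depth of these values is unknown.

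**Figure D3:**
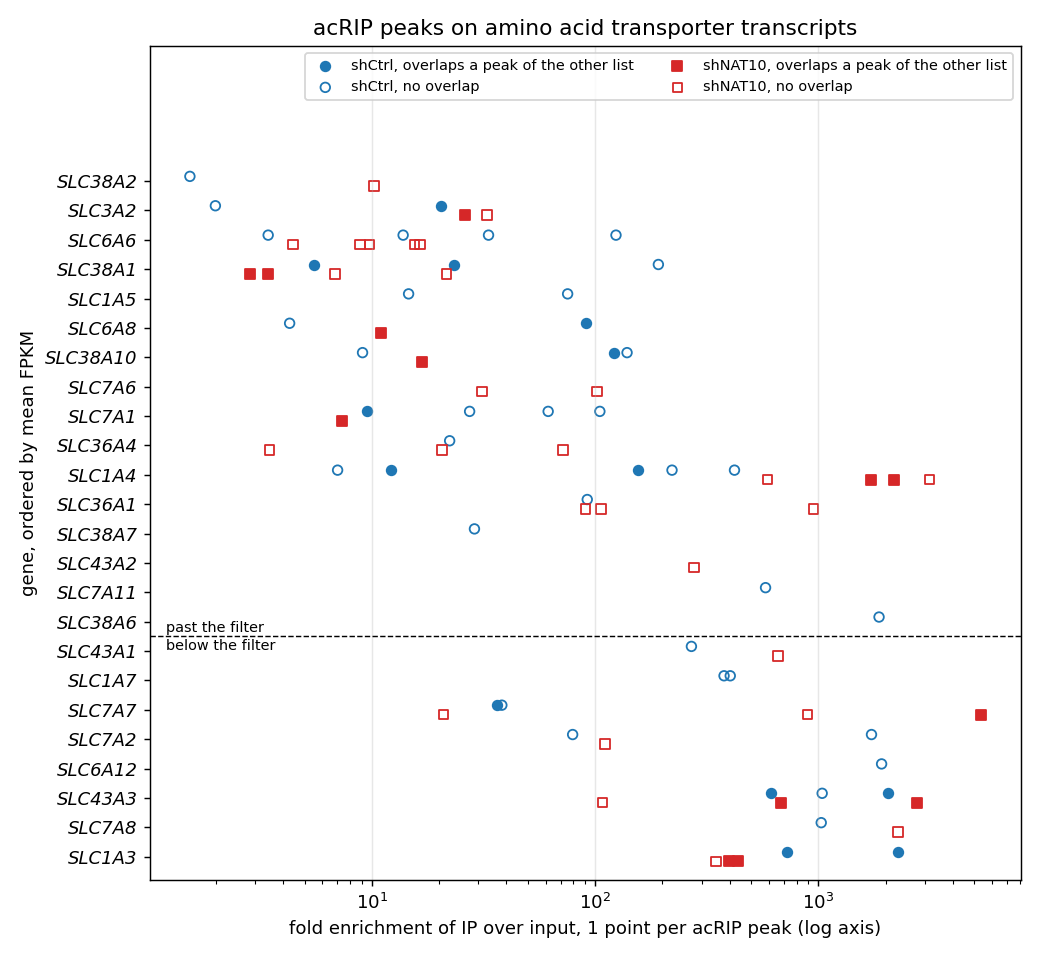
Fold enrichment of IP over input (log axis) of each acRIP peak on the 24 members with a peak, genes ordered by mean FPKM (blue circles, shCtrl list; red squares, shNAT10 list; filled, overlapping a peak of the other list; open, not overlapping). The 8 members below the dashed line did not pass the expression filter, and their shCtrl peaks run from 36.3 to 2280, against 1.53 to 1870 above the line.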

How the data were processed

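RNA-seq (3 shCtrl and 3 shNAT10 libraries) and acRIP-seq (3 IP and 3 input libraries per group) of PANC-1 cells were grouped by their labels. The authors deposited FPKM values per Ensembl gene, scaled by length and library reads. For acRIP-seq the authors deposited 1 peak list per group. It gives the ratio of IP to input (fold enrichment), the p-value of each peak and its log10, deposited as the caller gave them, of which the ratio was reported and the p-values ranked peaks. The submitters' processing notes name HISAT2 2, HTSeq 0.11.0, DESeq2 1.22.2 and GRCh38. The peak caller and annotation are not given in the sources used here.

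Genes were placed on GENCODE v29, which held 58039 of 58302. With the length of the longest transcript, 97.0% of values above 0 lay within 0.02 of a whole number of reads. Those reads entered 1 alternative, limma's voom. The test was limma's (version 3.58.1, R 4.3.3), with a trend of variance on mean level, and took log2(FPKM + 0.1) of genes that reached 1 FPKM in 3 or more libraries. Fold changes are on that log2 scale, which understates changes of low genes. Every gene of the families was counted, with values per library for called members of at least 0.5 in log2 fold change, the 5 highest by mean and SLC7A11, SLC7A5, SLC3A2, SLC1A5 and SLC38A2, and positions for peaks of expressed members with a peak in both lists. Members, lists and rules were chosen with earlier results of these data known. Summaries used Python 3.11.15 with pandas 2.3.3, NumPy 2.4.6, SciPy 1.17.1 and matplotlib 3.10.9. The expression fit and the peak overlaps were tested on simulated data. Other pseudocounts, filters, scalings, a replicate block, voom, single libraries left out and stricter peak rules were tried, with their effect in the closing section. Some single genes are not reported here.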

Additional observations from a re-analysis of the deposited data

How the results depend on the processing

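The 10 member calls kept their direction under every alternative tried in which the gene was tested. With a minimum FPKM of 5, 15 members remained and 4 were higher and 3 lower, beside 2065 and 2020 of all 8474 genes tested. Without the filter, 6 were higher and 6 lower of 48, and with limma's voom on recovered reads 7 and 5. Over all genes, the fit without the filter called 2241 higher and 2330 lower of 29695. The voom fit called 2954 higher and 2699 lower of 12956. Counting only genes that reached the filter through libraries of both groups, chosen after seeing the data, left 4 higher and 5 lower of 21. Over all such genes, 20.5% were higher and 20.5% lower. No clear pairing of the libraries by the numbers 1 to 3 was seen, with correlations of same-numbered deviations of −0.04, 0.06 and 0.11. The other correlations ran from −0.12 to 0.06. With 3 libraries per group these values cannot show whether libraries were prepared in pairs. The fit with a replicate block called 6 members higher and 5 lower, gaining SLC6A6 (adjusted p = 0.0428), and NAT10 stood at −1.84 in it. It called 2524 of all 12982 genes higher and 2603 lower. With each library left out, members called higher ranged from 2 to 7 and lower from 4 to 8. With the shCtrl libraries left out in turn, 6, 7 and 4 members were higher and 6, 8 and 4 lower, and without the shNAT10 libraries 2, 3 and 4 higher and 4, 4 and 4 lower. The calls over all genes changed in the same fits. Without the shCtrl libraries in turn, 2877, 3311 and 1973 genes were higher and 2868, 3182 and 1785 lower. Without the shNAT10 libraries, 1774, 1717 and 1736 were higher and 1835, 1896 and 1766 lower. From 12680 to 12747 genes were tested in these fits. The one reversed estimate was that of SLC7A11 without shCtrl replicate 2, −0.15, and with each library left out its estimate ran from −0.15 to 0.24.

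For the other lists, each library left out in turn gave 4 to 8 amino acid response genes higher and 4 to 9 lower, 1 to 10 sensing genes higher and 2 to 12 lower, 1 to 5 carriers of other families higher and 3 to 4 lower, and 3 to 6 enzymes higher and 2 to 8 lower. Over all genes the same fits called 1717 to 3311 higher and 1766 to 3182 lower. Sensing genes called lower and higher numbered 3 and 3 without the filter, and 5 were lower in TPM. Carriers of other families called higher numbered 2 without the filter, 7 in TPM and 1 with the replicate block. Of the enzymes of amino acid use, 2 were higher at a minimum FPKM of 5. Over all genes, 2241 were higher and 2330 lower of 29695 without the filter, and 3355 and 2075 of 12982 in TPM. With the replicate block 2524 and 2603 of 12982 were called, and at a minimum FPKM of 5, 2065 and 2020 of 8474. The cause of these shifts was not tested. Restricting each list to the upper 50% of peaks by fold enrichment left 11 members with a shNAT10 peak and 7 member peaks of shCtrl cells that overlap a shNAT10 peak. Other peak alternatives (lowest p-values, reciprocal overlap of 50%, transcript with the longest CDS) stayed within 1.5 times. With 3 libraries per group and 1 peak list per group, small changes and any change of single peaks were not resolved.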
